A study of Mus musculus with 26 samples.

Results

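The semaphorins, plexins, neuropilins, Eph receptors and ephrins are guidance genes, whose products tell growing axons and migrating cells where to go. They were taken by gene symbol from the probe sets of a mouse gene array that carry a single symbol, with 1 probe set per gene, the one with the highest mean. The rule found 52 of the 19938 genes measured, namely 7 secreted (class 3) semaphorins, 13 membrane-bound semaphorins of classes 4 to 7, 9 plexins, 2 neuropilins, 9 EphA receptors, 4 EphB receptors, 5 ephrin-A ligands and 3 ephrin-B ligands. The rule goes by symbol and uses no difference between groups.

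Semaphorins are ligands of plexins. The secreted class 3 proteins mostly reach plexins through neuropilins as co-receptors, while most membrane-bound semaphorins bind plexins directly, and an activated plexin makes the cytoskeleton at the contact site collapse. Ephrin-A ligands are tied to the membrane by a lipid anchor and ephrin-B ligands span it, and their Eph receptors are tyrosine kinases that are switched on by cell contact. In the nervous system both systems are known for repelling axons, and progenitors and astrocytes use them to settle territories and, after injury, to form borders.

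The samples were neurospheres (NSPs), free-floating clusters of neural stem cells, prepared from the ventricular zone of C57BL/6J mouse embryos at embryonic day 14 and plated in medium with serum, in which they turn into astrocytes. TNF (50 ng/mL), an inflammatory cytokine that activates NF-κB, was given to 1 arm, sampled after 6, 24, 48 and 72 h. The untreated arm, in the same serum medium without TNF, was sampled at these times. Untreated cells were also sampled at 0 h, the start of differentiation. Before that, neurospheres were grown in a medium with the growth factor EGF, and they were then plated on coated wells in serum medium. Comparisons against 0 h thus span time, the change of medium and plating, which cannot be told apart here. Each group of treatment and time has 3 arrays, except TNF at 72 h, which has 2. No genetic change is recorded for any group. Replicates are described as biological, and the n of each comparison is the number of arrays. Values are log2 signals, on which 1 unit is a doubling. A gene was called when its q-value, an adjusted p-value over all 35556 probe sets from a limma fit of all 26 arrays, was under 0.05.

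Several known genes followed the labels. Nfkbia, which encodes the NF-κB inhibitor IκBα, lay between 12.11 and 12.58 on the TNF arrays and between 9.71 and 10.40 on the untreated arrays, and did not overlap. The TNF-induced gene Tnfaip3 lay between 8.72 and 9.77 on the TNF arrays and between 6.80 and 7.43 on the untreated arrays. The astrocyte genes Gfap (log2 change 4.54 ± 0.262, SE) and Aqp4 (2.21 ± 0.319) rose by 72 h in untreated cells against 0 h. Of 10 astrocyte markers, 4 were called higher and none lower, against 14.6% and 11.2% of all genes. Of 9 neural progenitor markers, Nes (0.98) and Prom1 (0.98) were called higher. Egfr (−1.17), Hes5 (−2.17) and Mki67 (−2.99 ± 1.09, with overlapping arrays) were called lower. Top2a (−2.57 ± 1.17), Pax6 (0.30), Sox2 (−0.05) and Fabp7 (0.04) were not called. Of 9 microglia markers, 7 were dim, meaning below the level under which 95% of olfactory receptor genes lie (6.90), and so were 5 of 8 endothelial markers. Of 8 mural and fibroblast markers, 3 were dim. Among them Acta2 (4.09 ± 0.356) and Rgs5 (0.55 ± 0.112) were called higher and none lower in untreated cells at 72 h. Of the 52 guidance genes, 45 were above the level of 6.90, and Sema3d, Sema7a, Epha1, Epha3, Epha6, Epha7 and Efna5 were dim. The arrays measure whole cultures, in which fewer cells of a type and less RNA per cell cannot be told apart.

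Few of the guidance genes were called in a TNF effect, namely 2 membrane-bound semaphorins and 2 plexins. Sema6d was lower in TNF-treated than in untreated cells at all 4 times, Sema4b was higher at 6 h, Plxnd1 was higher at 24, 48 and 72 h, and Plxna2 was higher at 48 h. At 6 h, 1 of the 52 genes was called higher and 1 lower, against 0.507% and 0.01% of all genes. At 24 h, 1 was called higher and 1 lower, against 0.953% and 0.306% of all genes. At 48 h, 2 were called higher and 1 lower, against 1.12% and 0.376%. At 72 h, 1 was called higher and 1 lower, against 0.873% and 0.657%. The median log2 change of the 52 genes from 6 h to 72 h was −0.05, 0.03, −0.06 and 0.07, beside −0.03, 0.02, −0.04 and −0.01 over all genes. None of the class 3 semaphorins, neuropilins, Eph receptors and ephrins was called at any time in this limma fit, which ignores replicate numbers. With replicate numbers in the fit, Sema3c was called at 24 and 48 h. Without adjustment, p was under 0.05 for 3 of the 52 genes that were higher and 2 that were lower at 6 h, beside 641 and 438 of the 19938 genes. The counts were 8 higher and 3 lower at 24 h (855 and 593 of all genes), 7 higher and 3 lower at 48 h (843 and 765), and 8 higher and 2 lower at 72 h (1086 and 1101). With array weights, which give noisier arrays less say, 3, 7, 3 and 12 of the 52 genes were called from 6 h to 72 h. The calls over all genes in that fit are not given here, so these counts are not read as particular to the guidance genes.

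**Figure D1:**
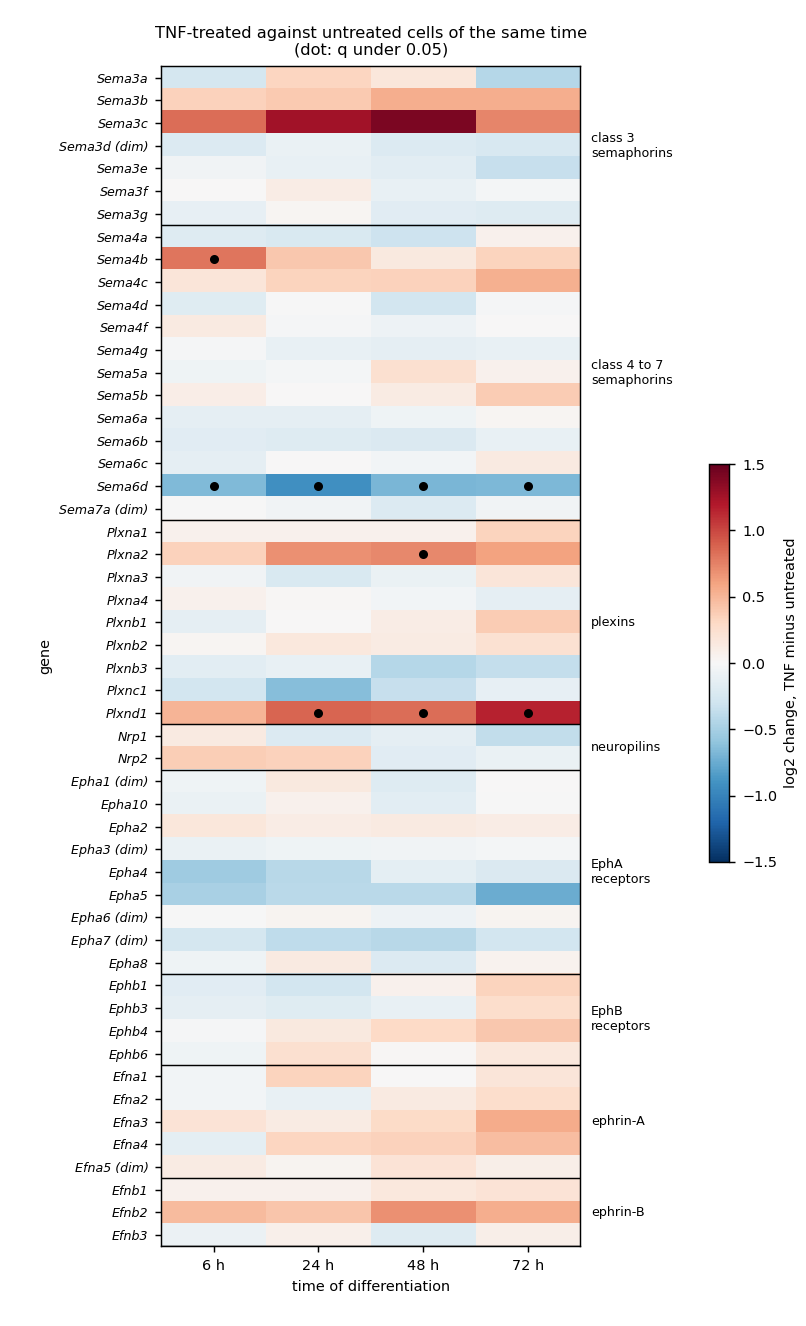
Log2 change of TNF-treated against untreated cells of the same time for each of the 52 guidance genes (down the page, by family) at 6, 24, 48 and 72 h (across). Red is higher and blue is lower with TNF, dots mark a q-value under 0.05, and genes marked dim lie below a log2 signal of 6.90. The dots stand at Sema6d at all 4 times, at Plxnd1 at 3 times, and once each at Sema4b and Plxna2.

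The promoters of these 4 genes are shown because TNF acts through NF-κB, whose binding motif can be looked for in them. Each sequence has 250 bases before an annotated transcription start and 30 after it, read 5′ to 3′ on the gene's strand from RefSeq (GRCm38.p6), with a match to the NF-κB consensus in capitals.
Sema6d, chr2:124089719-124089998, plus strand: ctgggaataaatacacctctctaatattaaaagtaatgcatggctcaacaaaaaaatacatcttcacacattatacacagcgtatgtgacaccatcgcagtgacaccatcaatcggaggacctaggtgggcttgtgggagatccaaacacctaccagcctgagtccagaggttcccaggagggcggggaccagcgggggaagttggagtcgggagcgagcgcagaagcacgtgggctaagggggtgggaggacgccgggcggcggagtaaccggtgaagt
Sema4b, chr7:80186620-80186899, plus strand: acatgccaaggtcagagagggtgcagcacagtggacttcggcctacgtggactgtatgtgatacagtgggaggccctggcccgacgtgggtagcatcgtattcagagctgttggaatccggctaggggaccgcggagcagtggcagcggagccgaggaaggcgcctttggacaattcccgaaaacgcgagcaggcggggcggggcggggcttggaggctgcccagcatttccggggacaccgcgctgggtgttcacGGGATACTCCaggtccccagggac
Plxnd1, chr6:115994976-115995255, minus strand: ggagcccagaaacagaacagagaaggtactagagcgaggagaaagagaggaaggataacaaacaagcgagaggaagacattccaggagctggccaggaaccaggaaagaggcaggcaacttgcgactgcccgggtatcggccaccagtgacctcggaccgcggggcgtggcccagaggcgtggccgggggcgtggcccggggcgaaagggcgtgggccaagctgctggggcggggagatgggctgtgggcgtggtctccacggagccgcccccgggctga
Plxna2, chr1:194619579-194619858, plus strand: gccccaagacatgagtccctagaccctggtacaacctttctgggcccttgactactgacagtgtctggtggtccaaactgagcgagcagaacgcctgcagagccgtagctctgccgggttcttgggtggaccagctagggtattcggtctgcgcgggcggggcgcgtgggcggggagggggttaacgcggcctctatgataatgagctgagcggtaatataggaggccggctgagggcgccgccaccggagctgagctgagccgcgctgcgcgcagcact
Sema4b carries the only match among them, at bases 257 to 266 of its window, past the start and on the gene's own strand. The consensus of 10 letters was searched by name on both strands, and it occurs in 1480 of all 32851 windows of 300 bases (4.51%). All 52 genes were found in the RefSeq gene table by their gene ID, and 46 of them have promoter windows, of which 6 of 60 hold a match. Besides that of Sema4b, the matches lie in Efna2, Ephb1, Sema4a, Sema4c and Sema6c, none of which was called in a TNF effect. The second annotated windows of Sema4b and of Sema6d hold none. A match is a description of the sequence, and binding was not measured.

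Sema6d encodes a transmembrane semaphorin that binds class A plexins. Its probe set reports a gene of 578 kb on chromosome 2 (chr2:124089943-124667789, GRCm38.p6). At 6 h its log2 signal was 11.19, 11.53 and 11.65 in TNF-treated cells, against 11.99, 12.24 and 12.12 in untreated cells. At 24 h it was 11.54, 11.66 and 11.79 in TNF-treated cells, against 12.55, 12.56 and 12.63 in untreated cells. Every TNF array lay below every untreated array at both times. At 48 h TNF-treated cells gave 12.15, 12.09 and 12.04, against 12.72, 12.91 and 12.73 in untreated cells. At 72 h TNF-treated cells gave 12.17 and 12.16, against 12.78, 12.85 and 12.87 in untreated cells. The separation was again complete. The TNF arrays of 6 and 24 h lay around the 0 h arrays of untreated cells (11.66, 11.57 and 11.51), and those of 48 and 72 h lay above them.

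The TNF effect on Sema6d, as a log2 change with its SE, was −0.66 ± 0.103 at 6 h (q = 0.00212) and −0.92 ± 0.103 at 24 h (q = 1.99e-05), the second of which is 1.89-fold lower with TNF. It was −0.69 ± 0.103 at 48 h (q = 0.000511), and the 72 h effect was −0.67 ± 0.115 (q = 0.00344). Sema6d was 1 of only 2 genes called lower at 6 h. It stayed called at 6, 24 and 48 h whichever array was left out, and at 72 h it lost its call without TNF replicate 1 or TNF replicate 2 (−0.70 to −0.65 over the 5 arrays left out in turn, highest q = 0.0854). When only the 6 arrays of 6 h were fitted, neither Sema6d (q = 0.74) nor Sema4b (q = 0.481) was called. The mean log2 signal of genes in the top minus the bottom quartile of genomic length was lower on the TNF arrays at 24 h (0.508, 0.621 and 0.558, against 0.626, 0.7 and 0.627 untreated) and 72 h (0.506 and 0.495, against 0.663, 0.631 and 0.633). It overlapped between the arms at 6 h (0.482, 0.403 and 0.568, against 0.51, 0.559 and 0.565) and 48 h (0.654, 0.635 and 0.468, against 0.555, 0.676 and 0.631). Sema6d remained called at all 4 times after a correction for gene length, at −0.57, −0.89, −0.62 and −0.58.

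Sema4b, another transmembrane semaphorin, lies at chr7:80186870-80226646. At 6 h its log2 signal was 9.76, 9.97 and 9.56 in TNF-treated cells, against 9.01, 9.01 and 8.88 in untreated cells. At 24 h it was 9.70, 9.68 and 9.81 in TNF-treated cells, against 9.30, 9.34 and 9.30 in untreated cells. The groups were apart at both times, but only the 6 h difference was called, at 0.80 ± 0.107 (SE, q = 0.000301, 1.74-fold), and it held whichever array was left out. The 24 h difference was 0.41 ± 0.107 (q = 0.0829), and the later ones were 0.15 ± 0.107 at 48 h and 0.33 ± 0.119 at 72 h (q = 0.269). At 48 h the arms overlapped, with 9.27, 9.25 and 9.55 in TNF-treated cells and 9.29, 9.06 and 9.26 in untreated cells. The untreated cells at 0 h had 10.69, 10.99 and 10.81, so that both arms lay below the start at every later time.

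Plxnd1 encodes the plexin that binds Sema3e without a neuropilin and is best known from blood vessel patterning. It lies at chr6:115954811-115995339. At 24 h its log2 signal was 11.36, 11.35 and 11.19 in TNF-treated cells, against 10.40, 10.54 and 10.35 in untreated cells. At 48 h it was 11.30, 11.29 and 11.37 in TNF-treated cells, against 10.51, 10.45 and 10.48 in untreated cells. At 72 h it was 11.16 and 11.15 in TNF-treated cells, against 10.07, 9.79 and 10.14 in untreated cells. No TNF array overlapped with an untreated array at these times, nor at 6 h, when TNF-treated cells had 10.55, 10.42 and 10.27 and untreated cells 10.03, 9.86 and 9.82. The 6 h difference of 0.51 ± 0.174 missed the threshold (SE, q = 0.569). The effect was 0.87 ± 0.174 at 24 h (q = 0.0123) and 0.84 ± 0.174 at 48 h (q = 0.0151). The 72 h effect was 1.15 ± 0.194 (q = 0.00289), which is 2.23-fold higher with TNF. Leaving out 1 array at a time gave 0.83 to 0.93 at 24 h (highest q = 0.081), 0.81 to 0.85 at 48 h (highest q = 0.073) and 1.05 to 1.22 at 72 h (highest q = 0.0694). The call was lost at 24 h without untreated replicate 1 or 3 or TNF replicate 1 or 2, at 48 h without untreated replicate 1 or 3 or TNF replicate 2 or 3, and at 72 h without either TNF array.

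Plxna2, a class A plexin that serves as a receptor of Sema6a, was called at 48 h (0.72 ± 0.169, SE, q = 0.036). Its log2 signal there was 10.51, 10.39 and 10.21 in TNF-treated cells, against 9.67, 9.59 and 9.70 in untreated cells, with no overlap. At 24 h it was 10.38, 10.69 and 10.35 in TNF-treated cells, against 9.83, 9.86 and 9.67 in untreated cells, a difference of 0.69 ± 0.169 that missed the threshold (q = 0.0616). The difference was 0.60 ± 0.189 at 72 h (q = 0.165). The 48 h call was lost when any 1 of its 6 arrays was left out (0.65 to 0.80, highest q = 0.187) and with cyclic loess scaling (q = 0.0521).

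**Figure D2:**
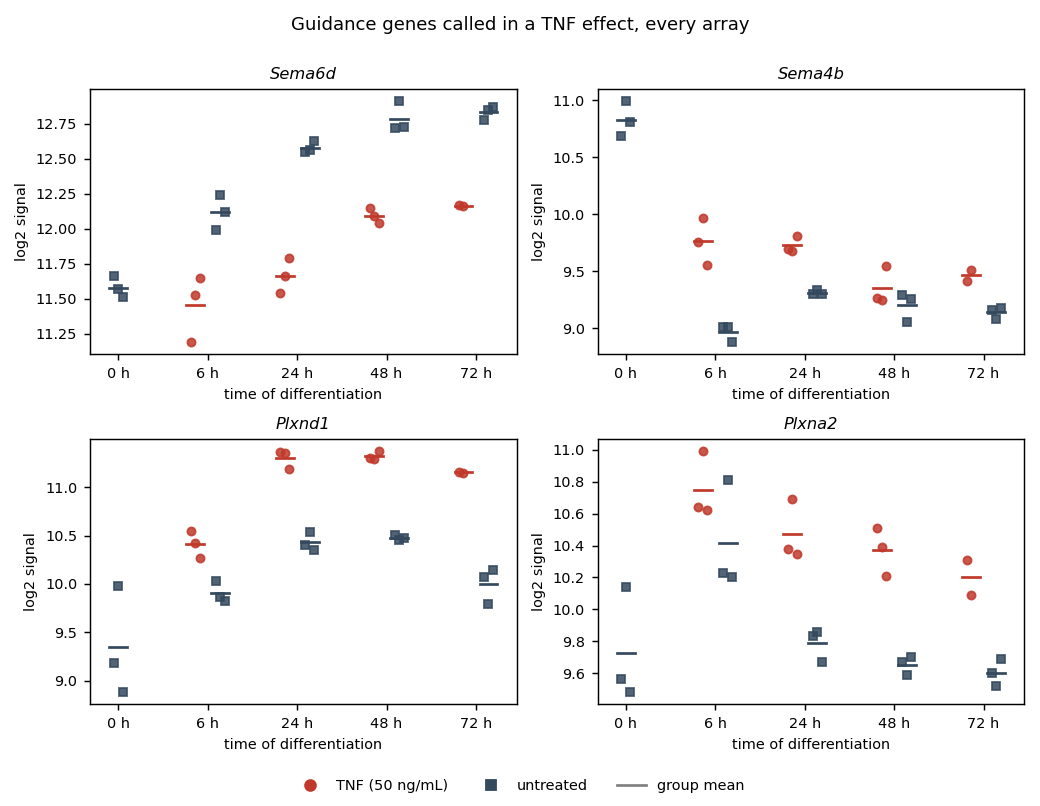
Log2 signal of Sema6d, Sema4b, Plxnd1 and Plxna2 on every array, with TNF-treated cells (red circles) to the left of untreated cells (dark squares) at each time and untreated cells alone at 0 h; bars are group means. Sema6d TNF arrays run from 11.19 to 12.17 and stay under the untreated arrays of their time, and Plxnd1 TNF arrays stay above them.

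Sema3c, a secreted semaphorin that signals through neuropilins and Plxnd1, had the largest positive differences of the 52 genes at 6, 24 and 48 h. It was not called in the fit that ignores replicate numbers. At 24 h its log2 signal was 9.01, 9.78 and 9.45 in TNF-treated cells, against 7.58, 8.83 and 8.06 in untreated cells. At 48 h it was 9.63, 10.48 and 9.51 in TNF-treated cells, against 7.86, 9.38 and 8.14 in untreated cells. The arms did not overlap at either time, but the arrays within an arm were far apart, with replicate 2 the highest in both arms. With replicate numbers in the fit as a block, Sema3c was called at 24 and 48 h, as given in the last section. At these times the numbers did not meet the pairing rule over all probe sets. The difference was 1.26 ± 0.387 at 24 h (SE, q = 0.222) and 1.41 ± 0.387 at 48 h (q = 0.102). It was 0.84 ± 0.387 at 6 h and 0.73 ± 0.432 at 72 h, with q-values of 0.894 and 0.67.

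The other genes among the 3 most negative at a time were not called. Epha4, a receptor for both kinds of ephrin, differed by −0.53 ± 0.234 at 6 h (SE, q = 0.877), with TNF arrays below all untreated ones, and by −0.42 ± 0.234 at 24 h. Epha5, an ephrin-A receptor, differed by −0.75 ± 0.374 at 72 h (q = 0.548), where TNF-treated cells had 9.28 and 9.32 and untreated cells 10.08, 10.24 and 9.81. These arrays did not overlap, while those of Epha5 at 6, 24 and 48 h did. Plxnc1, the receptor of Sema7a, differed by −0.64 ± 0.275 at 24 h (q = 0.732), Plxnb3 by −0.43 ± 0.49 and the dim Epha7 by −0.42 ± 0.169 at 48 h, and the ligand Sema3a by −0.43 ± 0.348 at 72 h.

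Whether a TNF effect differed between times was tested as the effect at 24, 48 or 72 h minus that at 6 h. None of the 52 guidance genes was called in any of the 3 tests by limma, against 0.0251%, 0.145% and 0.191% of all genes. By the same tests 3, 3 and 4 had an unadjusted p under 0.05. The counts over all genes at that threshold are not given here, so these numbers are not read as a result. The effect on Sema4b was smaller than at 6 h by 0.38 ± 0.151 at 24 h, by 0.64 ± 0.151 at 48 h (q = 0.182) and by 0.47 ± 0.16 at 72 h. For Plxnd1 the differences in the same order were 0.36 ± 0.246, 0.32 ± 0.246 and 0.64 ± 0.261, and for Sema6d they were −0.26 ± 0.146, −0.03 ± 0.146 and −0.01 ± 0.155. With array weights 0, 1 and 3 of the 52 genes were called, Sema4b among them at 48 and 72 h, again without a count over all genes.

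Many more of the guidance genes were called in untreated cells against 0 h. By 72 h in untreated cells, the semaphorins Sema5a, Sema4b, Sema4c, Sema5b, Sema4a and Sema6a, the plexin Plxnb3, the receptors Ephb3 and Ephb1 and the ligands Efna2 and Efnb1 had fallen below 0 h. Sema3c, Sema3e, Sema3f, Sema6d, Plxnd1, Plxnb2, Plxna1, Epha4 and Efnb2 had risen. At 6 h, 9 were called higher and 6 lower, against 5.5% and 4.66% of all genes. At 24 h, 8 were called higher and 8 lower, against 11% and 7.87% of all genes. At 48 h, 8 were called higher and 9 lower, against 11.3% and 7.47%. At 72 h, 9 were called higher and 11 lower, against 14.6% and 11.2%. The 20 genes called at 72 h make up 38.5% of the 52, beside 25.8% of all genes. These 4 comparisons share the 0 h arrays.

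**Figure D3:**
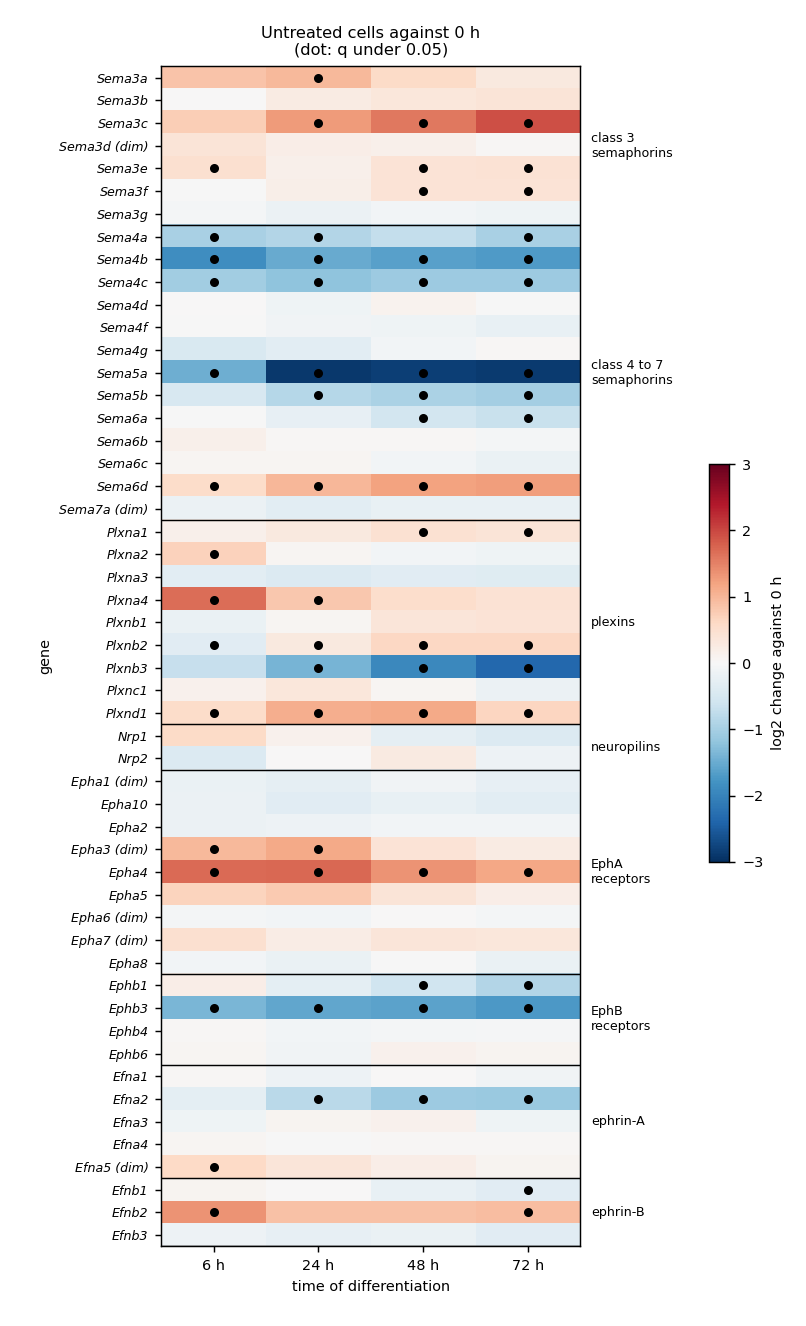
Log2 change of untreated cells at 6, 24, 48 and 72 h (across) against 0 h for the 52 guidance genes (down the page, by family). Red is higher and blue is lower than at 0 h, and dots mark a q-value under 0.05. Sema5a is the darkest blue at 24, 48 and 72 h (−2.89, −2.82 and −2.87), and the class 4 to 7 semaphorins hold 6 of the 11 calls for lower at 72 h.

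By family, 3 class 3 semaphorins were higher and none was lower at 72 h. Of the 13 membrane-bound semaphorins, 6 were lower and 1, Sema6d, was higher. Of the 9 plexins, 3 were higher and 1 lower, and neither neuropilin was called at any time. Of the 9 EphA receptors 1 was higher, and of the 4 EphB receptors 2 were lower. Of the ephrins, Efnb2 was higher and Efna2 and Efnb1 were lower. The family differences themselves were not tested.

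The deepest fall was that of Sema5a, a transmembrane semaphorin with thrombospondin repeats. Its log2 signal was 10.78, 9.05 and 10.70 at 0 h and 8.54, 8.86 and 8.73 at 6 h. The 24 h arrays gave 7.23, 7.27 and 7.36, the 48 h arrays 7.40, 7.23 and 7.44, and the 72 h arrays 7.26, 7.40 and 7.26. Most of the fall was thus over by 24 h, and every later array lay below every 0 h array. The change was −1.47 ± 0.27 at 6 h (SE, q = 0.00116) and −2.89 ± 0.27 at 24 h (q = 1.96e-07), where it ranked 5 from the lowest of the 19938 genes. The 72 h change was −2.87 ± 0.27 (q = 9.38e-08), and it ranked 11.

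Plxnb3, a plexin reported to be a receptor of Sema5a, fell as well. It had 11.95, 9.47 and 11.99 at 0 h and 10.70, 9.76 and 10.84 at 6 h. The 24 h arrays gave 9.43, 10.03 and 9.74, those of 48 h lay between 8.93 and 9.68, and the 72 h arrays gave 8.90, 8.21 and 9.23. The 72 h arrays all lay below those of 0 h, while the 24 and 48 h arrays overlapped with the lowest 0 h array. The change was −1.93 ± 0.49 at 48 h (SE, q = 0.00661), and it reached −2.35 ± 0.49 at 72 h (q = 0.000859). The 24 h change of −1.40 ± 0.49 (q = 0.0353) lost its call without 0 h replicate 1 or 3 or any 24 h array (−2.23 to −0.97).

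In Sema5a and Plxnb3, 0 h replicate 2 stood apart from the other 0 h arrays, and so it did in Ephb3, Sema4a and Epha4. It also did in further guidance genes, among them Nrp2 (7.99, against 9.35 and 9.54) and Plxnb1 (10.25, against 11.61 and 11.46). Plxnc1 (9.77, against 11.18 and 10.92), Epha5 (8.97, against 10.46 and 10.08) and Sema4g (7.57, against 8.71 and 8.58) were lowest on it too. Plxnd1 was highest on it (9.98, against 9.18 and 8.88), while Sema4c (9.48, against 9.32 and 9.45) did not stand apart. Without this array the 72 h change was −3.43 for Sema5a, −3.18 for Plxnb3, −2.13 for Ephb3, −1.50 for Sema4a and 0.72 for Epha4, against −2.87, −2.35, −1.72, −0.98 and 1.15 with it. From 6 h to 72 h, 18, 22, 17 and 22 guidance genes were called without it, against 15, 16, 17 and 20 with it, and 13, 16, 15 and 16 of them were shared. The calls over all genes without this array are not given here. Some cell type markers stood apart on this array as well. Its mean over 9 oligodendrocyte lineage markers was 9.23, against 9.80 and 9.65 for replicates 1 and 3, with Cnp at 11.35, against 12.58 and 12.80, and Pdgfra at 8.22, against 9.45 and 9.51. Olig1 (12.72, against 12.74 and 12.94), Olig2 (12.41, against 12.27 and 12.53) and Cspg4 (10.38, against 10.41 and 10.70) did not stand apart. Of the 10 astrocyte markers, Aqp4 was at 9.55, against 11.63 and 11.27, and Gja1 at 11.61, against 12.57 and 12.32. Sox9 was at 11.20, against 12.20 and 11.93. Aldoc, Glul, Aldh1l1, Slc1a2 and Slc1a3 were also lowest on this array, while Gfap and S100b lay between the other 0 h arrays. The part of these markers in the values of the guidance genes was not tested.

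**Figure D4:**
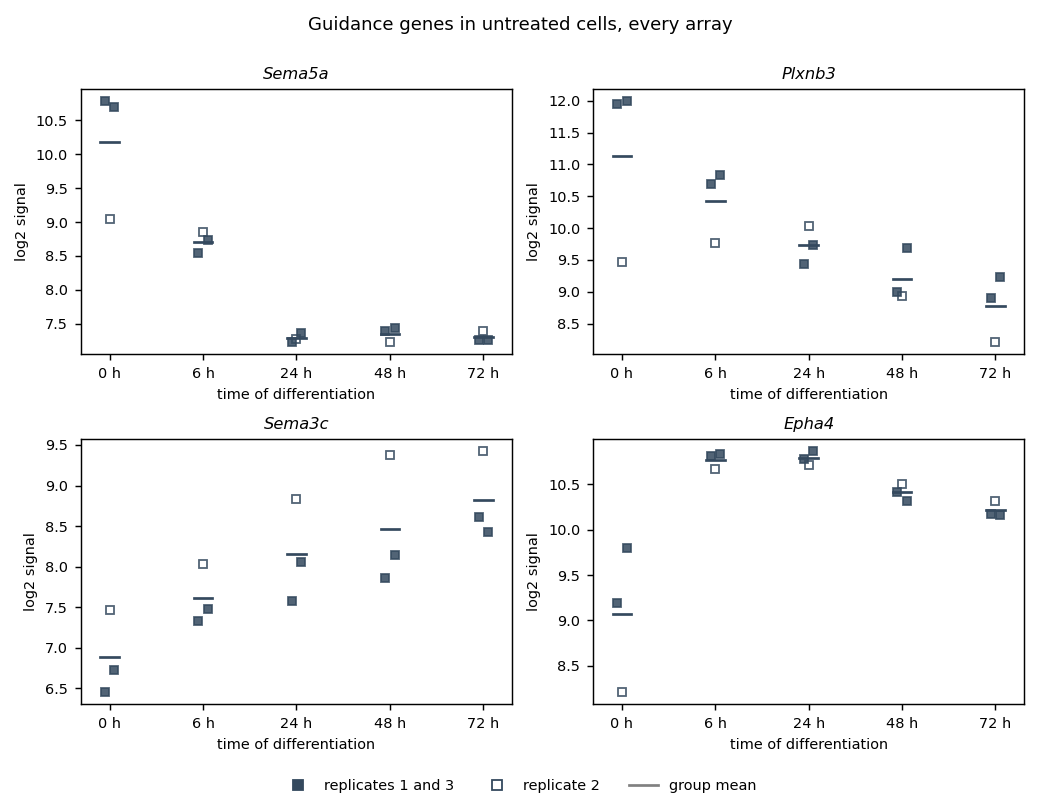
Log2 signal of Sema5a, Plxnb3, Sema3c and Epha4 in untreated cells at 0, 6, 24, 48 and 72 h, with replicate 2 as open squares, replicates 1 and 3 as filled squares and group means as bars. At 0 h the open square lies at 9.05 for Sema5a and 9.47 for Plxnb3, below the filled ones, and Sema3c is highest on the open square at every time.

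Some oligodendrocyte lineage markers fell over the same period. The mean log2 signal of the 9 measured lay between 8.79 and 9.12 on the untreated 72 h arrays, against 9.23 to 9.80 at 0 h. Of these, 4 were called lower at 72 h and none higher, against 11.2% and 14.6% of all genes, namely Cspg4 (−2.01 ± 0.247, SE), Olig2 (−1.49 ± 0.268), Olig1 (−1.03) and the dim Mag (−0.36). Cnp (0.23), Sox10 (−0.19), Mbp (−0.16), Pdgfra (−0.15) and Mog (−0.14) were not called. No TNF effect was called for any of them in the limma fit. Their part in the fall of Sema5a, Plxnb3 and the other genes was not tested.

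Sema4b and Sema4c, class 4 semaphorins, fell early and stayed low. Sema4b had 10.69, 10.99 and 10.81 at 0 h, then 9.01, 9.01 and 8.88 at 6 h, while the 72 h arrays gave 9.16, 9.08 and 9.18, with no overlap between 0 h and the later times. Its change was −1.86 ± 0.107 at 6 h (SE, q = 7.61e-10), where it ranked 16 from the lowest of all genes, and −1.69 ± 0.107 at 72 h. Sema4c, a ligand of Plxnb2, was lower at all 4 times, by −1.20 at 24 h and −1.09 at 72 h on the log2 scale. Sema5b fell by 1.03 at 72 h. Sema4a fell by 0.98 at 72 h, with 7.16, 7.12 and 7.22 at 72 h, against 8.72, 7.11 and 8.62 at 0 h, where replicate 2 lay at the level of the 72 h arrays. Sema6a, a ligand of Plxna2 and Plxna4, was called lower at 48 h (−0.55, lost without 0 h replicate 1, q = 0.0509) and 72 h (−0.66). Sema4d has a probe set besides the one used here, which was called higher at 48 and 72 h (0.64 and 0.69), while the one used was not called.

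Ephb3, a receptor of ephrin-B ligands, fell within 6 h. It had 10.95, 9.61 and 10.77 at 0 h, then 9.16, 8.89 and 9.16 at 6 h, and the 72 h arrays gave 8.93, 8.29 and 8.96. The change was −1.38 ± 0.266 at 6 h (SE, q = 0.0018) and −1.72 ± 0.266 at 72 h (q = 4.72e-05), with all later arrays below all 0 h arrays. Ephb1 was lower at 48 h (−0.59, lost without 0 h replicate 1 or 3 or 48 h replicate 2, highest q = 0.0689) and at 72 h (−0.89). Its second probe set was not called at either time (−0.34, q = 0.252, and −0.29, q = 0.203). Efna2 was the only ephrin-A ligand called lower, with 8.30, 7.87 and 8.39 at 72 h, against 9.06, 9.35 and 9.50 at 0 h (−1.12 ± 0.173, q = 4.6e-05). The ephrin-B ligand Efnb1 was lower at 72 h (−0.33), with overlapping arrays, and lost this call without 0 h replicate 1 or 2 or 72 h replicate 1 or 3 (highest q = 0.125).

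Of the genes that rose, Sema3c had the largest change at 72 h. It had 6.45, 7.47 and 6.72 at 0 h, then 7.33, 8.03 and 7.48 at 6 h, and the 24 h arrays gave 7.58, 8.83 and 8.06. The 48 h arrays gave 7.86, 9.38 and 8.14, and the 72 h arrays 8.61, 9.42 and 8.43. Replicate 2 was the highest at each time, and the change at 72 h was 1.94 ± 0.387 (SE, q = 0.000591). Its 24 h call (1.28) was lost without 0 h replicate 1 or 24 h replicate 2 (highest q = 0.143), and its 48 h call (1.58) without 48 h replicate 2 (q = 0.057). The related ligands Sema3f, which acts through Nrp2, and Sema3e, the ligand of Plxnd1, rose by 0.40 and 0.44 at 72 h, and both lost this call without 0 h replicate 2 or 72 h replicate 2 (highest q = 0.0724 and 0.109), Sema3e also without 0 h replicate 3.

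Sema6d had 11.66, 11.57 and 11.51 at 0 h and 11.99, 12.24 and 12.12 at 6 h. The 24 h arrays gave 12.55, 12.56 and 12.63, and the 72 h arrays 12.78, 12.85 and 12.87. All later arrays lay above all 0 h arrays, and the change was 0.54 ± 0.103 at 6 h (SE, q = 0.0017) and 1.25 ± 0.103 at 72 h (q = 1.54e-08). Sema6d was thus above 0 h at each time in untreated cells, and lower with TNF at each time. The mean of the 10 astrocyte markers was also lower on the TNF arrays, with 11.18 to 11.25 against 11.30 to 11.48 at 6 h and 11.68 to 11.88 against 12.06 to 12.25 in untreated cells at 24 h. At 48 h it was 11.83 to 12.08 on the TNF arrays against 12.26 to 12.38 on the untreated ones, and at 72 h 11.84 to 11.94 against 12.15 to 12.36. Of the 10 markers, 1, Gja1, was called lower with TNF, at 24 h (−1.10 ± 0.237, q = 0.0235), and none was called higher. Beside it, 0.306% of all genes were called lower at 24 h. Not all markers were lower. Glul was higher with TNF at 48 h (0.41 ± 0.124) and 72 h (0.44 ± 0.139), without being called. Aldh1l1 and Slc1a3 were not lower at these times. Their part in the values of Sema6d was not tested.

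Plxnd1 had 9.18, 9.98 and 8.88 at 0 h, then 10.40, 10.54 and 10.35 at 24 h, and the 72 h arrays gave 10.07, 9.79 and 10.14. Against 0 h it was higher by 1.08 ± 0.174 at 24 h (SE, q = 0.000133), and the 72 h change was 0.65 ± 0.174 (q = 0.00593), with arrays that overlapped with those of 0 h. Plxnd1 was thus above 0 h in untreated cells and higher still with TNF from 24 h on. Plxnb2, a receptor of class 4 semaphorins, was lower at 6 h (−0.35), and higher at 24 h (0.30), 48 h (0.61) and 72 h (0.61). Its 6 h call was lost without 0 h replicate 2 or any 6 h array (−0.41 to −0.27), and its 24 h call without 0 h replicate 1 or 24 h replicate 2 or 3 (0.24 to 0.38). Plxna1, a receptor for class 3 and class 6 semaphorins, was higher by 0.46 at 48 h, a call lost without 0 h replicate 3 or 48 h replicate 2 (0.35 to 0.65), and by 0.38 at 72 h, a call lost without 0 h replicate 1 or 3 or 72 h replicate 1 or 2 (0.26 to 0.56).

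Epha4 rose within 6 h. Its log2 signal was 9.19, 8.21 and 9.80 at 0 h and 10.81, 10.67 and 10.83 at 6 h. The 24 h arrays gave 10.78, 10.71 and 10.86, and the 72 h arrays 10.17, 10.31 and 10.16, all above those of 0 h. The change was 1.70 ± 0.234 at 6 h (SE, q = 5.6e-05) and 1.15 ± 0.234 at 72 h (q = 0.000725). Efnb2, a ligand of Epha4 and of the EphB receptors, had 8.24, 8.38 and 8.26 at 0 h, then 9.61, 9.94 and 9.37 at 6 h, and the 72 h arrays gave 8.93, 9.90 and 8.82. Its change was 1.35 ± 0.355 at 6 h (q = 0.0173) and 0.92 ± 0.355 at 72 h (q = 0.0392), the 6 h call was lost without 6 h replicate 2 (q = 0.0883), and the 72 h call without any 1 of the 0 h arrays or without 72 h replicate 2 (0.58 to 1.12).

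Some genes were called only at early times. Plxna4, a receptor for Sema6a and class 3 semaphorins, was higher by 1.68 ± 0.238 at 6 h (SE, q = 7.89e-05) and by 0.81 ± 0.238 at 24 h (q = 0.0156), the second call being lost without 24 h replicate 2 (q = 0.139). The differences of 0.52 at 48 h and 0.44 at 72 h had q-values of 0.115 and 0.114, and the arrays were apart from those of 0 h at all 4 times. Plxna2 was higher at 6 h alone (0.68 ± 0.169, q = 0.0118), and this call was lost without 6 h replicate 2 (q = 0.0965). Sema3a, the classical axon-repelling semaphorin, was higher at 24 h alone (0.97 ± 0.311, q = 0.0244), a call lost without 0 h replicate 1 or 24 h replicate 2 (highest q = 0.166). The dim genes Epha3 (0.97 and 1.13 at 6 and 24 h) and Efna5 (0.59 at 6 h, lost without 5 of its 6 arrays, highest q = 0.118) were called as well. Times were not tested against each other, so that these lists say only where each gene passed the test.

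Genes around these receptors were followed as 2 lists. Of 36 signal transducers of plexin and Eph receptors, 1 was called higher with TNF at 6 h and 2 at each later time, beside 0.507%, 0.953%, 1.12% and 0.873% of all genes, and none was called lower. Rras, a small GTPase that plexins switch off, was higher with TNF by 1.31 ± 0.158 at 6 h (SE, q = 9.15e-05), by 1.41 at 24 h, by 1.40 at 48 h and by 1.11 ± 0.177 at 72 h (q = 0.00144). Rnd1, a small GTPase that binds plexins, was higher at 24 h (1.19, q = 0.028) and 48 h (1.17, q = 0.0267), and the kinase gene Src at 72 h (0.66, q = 0.0388). Rras kept its calls at 6, 24 and 48 h without any array and lost that of 72 h without TNF replicate 2 (q = 0.0556). The calls of Rnd1 were lost without 5 of 6 arrays at 24 h (highest q = 0.224) and 4 of 6 at 48 h (highest q = 0.276), and that of Src without any 1 of its 5 (highest q = 0.396). In untreated cells at 72 h, 9 of the 36 were higher and 13 lower than at 0 h, beside 14.6% and 11.2% of all genes, led by Mical2 (−2.74 ± 0.198), an enzyme that oxidises actin, Chn2 (−1.54 ± 0.222), Dpysl5 (1.46 ± 0.185) and Rnd1 (1.06 ± 0.263).

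Of 23 genes of the slit, robo, netrin and RGM guidance systems, none was called in a TNF effect at 6 h. There 1 had an unadjusted p under 0.05 by limma, and the counts over all genes at 6 h were given above. At 24 h 1 was called, at 48 h 2 and at 72 h 2, all higher, beside the same shares of all genes as above. Ntn1, the axon guidance cue netrin-1, was higher with TNF by 1.40 ± 0.154 at 24 h (SE, q = 1.66e-05), by 1.69 at 48 h and by 1.64 at 72 h, and it kept these calls whichever array was left out. Flrt3, a membrane protein that binds netrin receptors of the Unc5 type, was higher at 48 h (0.79 ± 0.129, q = 0.00145) and 72 h (0.69 ± 0.144, q = 0.0202), its 72 h call being lost without any 1 of the 5 arrays (highest q = 0.239). At 72 h in untreated cells 1 of the 23 was higher and 6 were lower than at 0 h, beside 14.6% and 11.2% of all genes. The lower ones were led by Draxin (−1.26 ± 0.406), whose call was lost without 0 h replicate 1 or 3 or 72 h replicate 2 (highest q = 0.0985), Robo1 (−1.09 ± 0.249), Flrt2 (−1.01 ± 0.214) and Unc5a (−0.79 ± 0.125).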

How the data were processed

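RNA of 26 samples was hybridised to Affymetrix mouse gene arrays. The deposited log2 values were made by the authors with RMA (background correction, quantile normalisation and summary per probe set) in the oligo package under R 3.3.1, and for RMA and oligo a version is not given in the sources used here. RMA makes the arrays' distributions equal before the summary per probe set, so that all values are relative to the array. A value of 1 probe set is not set against that of another. Of 35556 probe sets, 21789 carry 1 gene symbol in the platform annotation, 1621 several and 12146 none. After the summary the arrays still differed, with medians between 7.54 and 7.76. The table has no detection calls, and the number of arrays limits the precision.

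All 9 groups of treatment and time were fitted with 1 mean each in limma 3.58.1 (R 4.3.3), without a block, and q-values were computed over all probe sets by a smoother written after the qvalue method. Contrasts were TNF minus untreated of the same time, later minus 0 h in untreated cells, and each later TNF effect minus that at 6 h. The calculation was tested on simulated data. A gene was named for a TNF effect if called or if among the 3 most positive or negative of the 52 at a time, and in the untreated course if called, with every array given for the 5 highest and 5 lowest at 72 h. In the pathway lists, genes called with TNF and up to 4 of the largest changes at 72 h were named. The genes and lists were chosen with earlier results of these data known. Ephb2 was not analysed here.

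Replicate numbers come from the sample titles. The second TNF array of 72 h is titled replicate 2 but follows the arrays titled replicate 3 in the series. Whether it pairs with untreated replicate 2 is not known. Replicate numbers were taken to pair the arrays of a comparison where the deviations of all 3 same-numbered pairs from their group means correlated above 0.1 over all probe sets. This held for the TNF effect at 6 h (0.461 to 0.674) and for untreated cells at 6 h (0.503 to 0.679), 48 h (0.299 to 0.557) and 72 h (0.14 to 0.175). Alternatives were Benjamini-Hochberg adjustment, cyclic loess, an intensity trend with robust prior, array weights, the replicate block, only the arrays compared, the dimmest 40% left out, averaging all probe sets of a gene, a gene length correction, and leaving out each array.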

Additional observations from a re-analysis of the deposited data

Results flagged for a closer look

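The TNF effect on Ntn1 was larger than that at 6 h by 1.22 ± 0.218 at 48 h (SE, q = 0.0247) and by 1.18 ± 0.232 at 72 h (q = 0.0466), by the limma test of the difference itself. The call at 48 h was lost without 8 of its 12 arrays (1.12 to 1.33) and the one at 72 h without 10 of its 11 (1.08 to 1.28). The 2 tests share the arrays of 6 h.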

How the results depend on the processing

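The numbers below count calls among the 52 genes. The calls over all genes under these settings are not given, so a changed count is not read as particular to the guidance genes. With only the arrays of a comparison in the fit, the TNF effect at 6 h gave 0 calls in place of 2 and that at 72 h gave 5 in place of 2, while the untreated comparisons at 6, 48 and 72 h gave 4, 6 and 10 in place of 15, 17 and 20. Array weights gave 7 calls at 24 h and 12 at 72 h in place of 2 each, which included both calls of the unweighted fit, and 1 and 3 in place of 0 for the TNF effect at 48 and 72 h minus that at 6 h. With the replicate block, the TNF effect gave 4 calls at 24 h and 5 at 72 h, and the untreated comparison at 24 h gave 25 in place of 16, among them all 16. In these 3 comparisons the replicate numbers did not meet the pairing rule over all probe sets, although over the 52 genes alone all 3 pairs of the TNF comparison at 24 h (0.541 to 0.848) and at 48 h (0.611 to 0.885) correlated. The block brought Plxna2 (q = 0.0171) and Sema3c (q = 0.0144) at 24 h and Sema3c at 48 h (q = 0.00444) under the threshold, and it removed no call among the named genes. In the paired comparisons it moved no count by more than 1.5 times. Leaving out 1 array gave 1 to 2 calls for the TNF effect at 24 h, 1 to 3 at 48 h, 0 to 2 at 72 h, 8 to 18 in untreated cells at 6 h and 10 to 22 at 24 h. Of the 21 TNF effects called for named genes, 4 were lost with only the arrays compared and 1 with cyclic loess. Of 83 such calls in the untreated course, 44 were lost with only the arrays compared, 11 with array weights, 9 with Benjamini-Hochberg adjustment and 3 with cyclic loess. Among the values of named genes, the sign turned only for small differences that were not called. Plxnb3 ran from −0.50 to 0.17 at 6 h and from −0.31 to 0.06 at 24 h with 1 array left out (0.06 with array weights), and Sema3a from −0.13 to 0.49 at 48 h. For Sema6d, the effect at 48 h minus that at 6 h ran from −0.17 to 0.06 with 1 array left out and was 0.09 with array weights, and that at 72 h minus 6 h ran from −0.14 to 0.09, with 0.12 under array weights and 0.00 under the block. The cause of these shifts was not tested.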
